A study of Rattus norvegicus with 11 samples.

Results

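The activin, inhibin and follistatin system was described here through 10 genes, chosen by name from a table of 25275 genes: the ligand subunit genes Inhbb, Inhba and Inha, the antagonists Fst and Fstl3, the receptors Acvr1b, Acvr1c, Acvr2a and Acvr2b, and the co-receptor Tgfbr3. All 10 symbols were found, each on a single row. RNA had been sequenced from retroperitoneal white fat of female Wistar rats, 1 library per rat. In the degarelix plus FSH group (n = 5) an osmotic pump released follicle-stimulating hormone (FSH) at 6 µg per kg per day. In the degarelix only group (n = 6) the pump released vehicle. All the rats, the degarelix only group included, had been fed a western diet from 10 weeks of age, had lost their ovaries after 6 weeks of it, and had been given degarelix, which blocks the receptor for gonadotropin-releasing hormone and so lowers FSH and luteinizing hormone from the pituitary. They were wild type, with food limited for 12 days and free for 7 days, and were 19 weeks old when the tissue was taken after a 4 h fast.

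Activins are dimers of the inhibin beta subunits, activin B of the Inhbb product and activin A of the Inhba product, while an inhibin pairs a beta subunit with the alpha subunit made from Inha. Activins bind the type II receptors, which then engage the type I receptors Acvr1b or Acvr1c and signal through Smad2 and Smad3. Follistatin and follistatin-like protein trap activins outside the cell, and betaglycan, the Tgfbr3 product, helps inhibin occupy the type II receptors. The system is named for the ovary and pituitary, where FSH raises Inha and Inhba transcription in granulosa cells and inhibin in turn lowers FSH output. In mouse fat, Acvr1c is found mainly in adipocytes and restrains lipolysis.

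RefSeq promoter windows (rat assembly GRCr8) were found for 9 of the 10 genes, all but Fst. The 250 bases before the annotated start are shown for Inha and Inhba, the pair of subunit genes that FSH raises in granulosa cells through cAMP, because they had few counts or almost none in fat, as given below. The Inha window (chr9:84442859-84443108, plus strand) and the Inhba window (chr17:53804509-53804758, minus strand) read 5′ to 3′, with capitals marking TGCGTCA in Inha and TGATGTCA in Inhba.
Inha: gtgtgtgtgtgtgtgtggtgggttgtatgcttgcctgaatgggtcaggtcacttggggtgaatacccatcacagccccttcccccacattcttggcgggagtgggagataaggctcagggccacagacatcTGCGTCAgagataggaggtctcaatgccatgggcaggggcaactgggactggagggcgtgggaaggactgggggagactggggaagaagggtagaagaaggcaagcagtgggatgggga
Inhba: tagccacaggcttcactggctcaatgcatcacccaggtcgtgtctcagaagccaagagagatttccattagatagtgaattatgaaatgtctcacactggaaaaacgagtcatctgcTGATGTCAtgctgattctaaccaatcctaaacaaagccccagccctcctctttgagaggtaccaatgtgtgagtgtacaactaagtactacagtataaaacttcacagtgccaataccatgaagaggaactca
Those capital letters were chosen for search after the windows had been read, as variants of the cAMP response element TGACGTCA. On either strand, TGCGTCA stood in 1.66% of the 33469 windows and TGATGTCA in 3.80%. The full element TGACGTCA, found in 1.59% of windows, was in none of the 9 member windows. Its core TGACG, in 18.2% of windows, was found in Inha, where it overlaps TGCGTCA on the other strand, and in Acvr2a. The Smad box CAGAC, in 42.9% of windows, was found in Inha and Fstl3.

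Total counts lay between 13163021 and 19837706 in degarelix plus FSH libraries and between 16452117 and 23694602 in degarelix only libraries (p = 0.0563, two-sided exact permutation test over 462 splits). The tissue label was checked against 8 adipocyte markers, which together held 37422 to 47572 CPM (counts per 1000000 of the library's scaled total) in degarelix plus FSH rats and 35878 to 44991 CPM in degarelix only rats. Of 5 granulosa cell markers, Fshr, Foxl2 and Cyp19a1 had 0 counts in every library, while Amh held 70 counts and Inha 345 over all libraries. Of 6 adrenal cortex markers matched, Cyp11b2 and Nr5a1 had 0 counts in every library, while Cyp11a1, Star, Mc2r and Cyp21a1 were counted. The adrenal list summed to 83.6 to 114 CPM in degarelix plus FSH rats and 81.5 to 114 CPM in degarelix only rats. The FSH receptor gene Fshr was thus not detected, and a count of 0 over all 11 libraries allows a level of up to 0.0149 CPM (3 counts, counting error only). The 6 endothelial markers matched had a summed level of 1328 to 2108 CPM in degarelix plus FSH rats and 1159 to 1537 CPM in degarelix only rats (p = 0.026, exact permutation test; 0.234 adjusted over 12 marker lists). The 6 pericyte and smooth muscle markers, none at 0, summed to 655 to 843 CPM in degarelix plus FSH rats and 518 to 719 CPM in degarelix only rats (p = 0.039, exact permutation test; 0.234 adjusted over the 12 lists). In bulk tissue, fewer cells of a type and less RNA per cell cannot be told apart.

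Of the 10 genes, 8 had enough counts to be tested between the groups, and none of them changed past the threshold. In the quasi-likelihood test of edgeR, with Benjamini-Hochberg adjustment over 12846 genes, 0 of 8 passed an adjusted p of 0.05, where 2.27% of all genes tested passed. The adjusted p of the 8 lay between 0.168 for Tgfbr3 and 0.984 for Inhbb. At an unadjusted p under 0.05, 2 of the 8 passed, Tgfbr3 and Inha, where 22.6% of all genes did. DESeq2 and limma-voom also called 0 members. The groups overlapped at every member, where they did not overlap at 4.34% of all genes. The log2 change was above 0 for 6 of the 8, against 51.6% of all genes, and its median was 0.16, against 0.0081 over all genes.

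**Figure D1:**
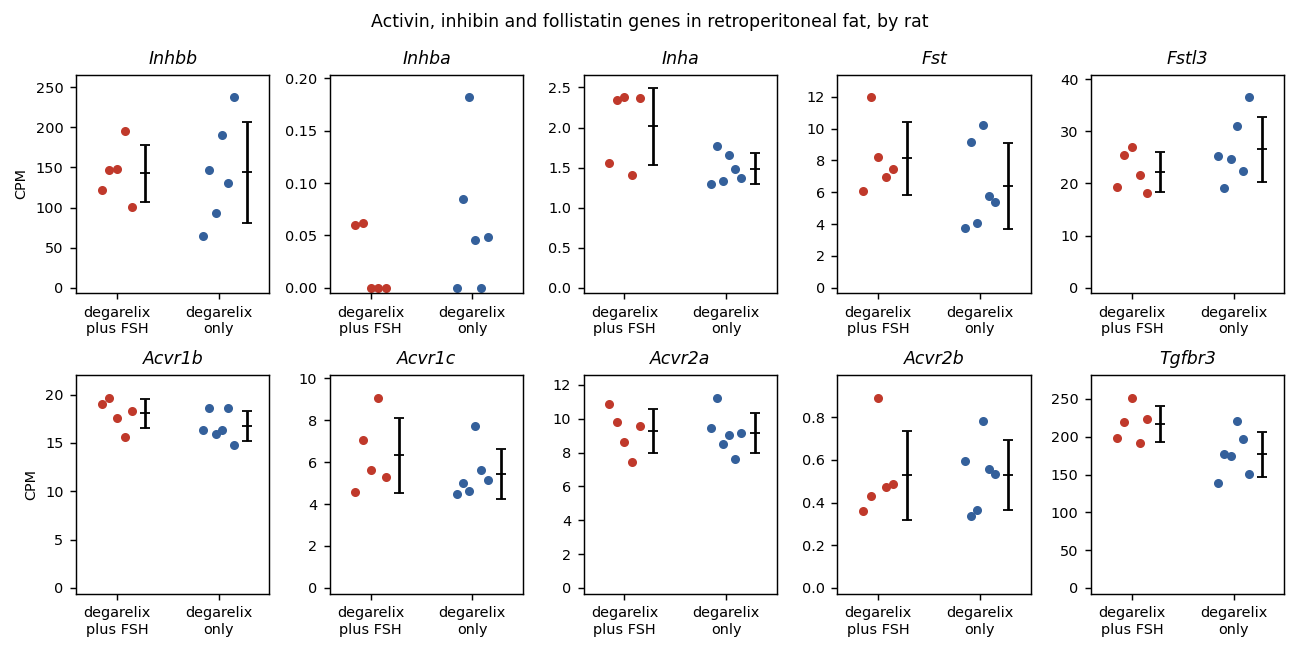
CPM of each of the 10 genes in every rat, degarelix plus FSH at the left and degarelix only at the right of each panel, each panel with its own axis from 0. Points are rats and bars the mean ± SD (none drawn for Inhba, which had 9 counts in all). The groups overlap in every panel.

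Among the ligand subunits, Inhbb was well counted, Inha was sparse and Inhba was close to absent. Inhbb (ENSRNOG00000060237), the subunit of activin B, had 122, 147, 148, 195 and 101 CPM in degarelix plus FSH rats 1 to 5, and in degarelix only rats it lay between 65.0 and 237 CPM with a median of 139. The lowest and the highest of the 11 rats were both degarelix only rats, replicates 1 and 6, and every degarelix plus FSH value fell between them. The means were 143 ± 35.2 CPM with FSH (SD, n = 5) and 144 ± 63.1 CPM without (SD, n = 6). The log2 change was -0.014 ± 0.29 (SE; adjusted p = 0.984, edgeR), and its 95% interval, as a fold, ran from 0.634 to 1.55. Changes within that interval were not resolved at this spread between rats. The spread itself was wide: Inhbb differed 3.65-fold between the lowest and the highest rat, and its biological coefficient of variation in the fit, 0.338, was above that of 97.4% of 1050 genes of like CPM.

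Inha (ENSRNOG00000020097), the alpha subunit that turns a beta subunit into inhibin, had 1.56, 2.34, 2.38, 1.41 and 2.37 CPM in degarelix plus FSH rats 1 to 5. In degarelix only rats it lay between 1.29 and 1.78 CPM with a median of 1.43. Degarelix plus FSH replicates 2, 3 and 5 were above all degarelix only rats, and replicates 1 and 4 were among them. These levels rest on 24 to 49 counts per library with FSH and 22 to 42 without. The log2 change was 0.43 ± 0.19 (adjusted p = 0.195, unadjusted p = 0.0388, edgeR; 95% interval of the fold 1.02 to 1.79), so that the difference did not pass the threshold over all genes.

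Inhba (ENSRNOG00000014320), the subunit of activin A, had 1, 1, 0, 0 and 0 counts in degarelix plus FSH rats 1 to 5, and between 0 and 3 counts, 7 in all, in the degarelix only rats. No library held more than the 3 counts taken as the floor, which corresponds to 0.127 to 0.223 CPM, and no fold is given, since both groups were at or under that floor. Over the 11 libraries Inhba held 9 counts and Inhbb 29134. The related subunit genes Inhbc and Inhbe held 8 and 26 counts in all.

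The antagonists, both of which bind activins with high affinity, differed in opposite directions and neither passed. Fst (ENSRNOG00000011631), follistatin, had 6.07, 12.0, 8.24, 6.95 and 7.46 CPM in degarelix plus FSH rats 1 to 5, and 3.72 to 10.2 CPM with a median of 5.58 in degarelix only rats. The low values were all in degarelix only rats: 4 of the 6 lay below every degarelix plus FSH rat. The other degarelix only values, of replicates 2 and 4, were among the highest of the 11. Fst differed by a log2 change of 0.34 ± 0.28 (adjusted p = 0.487, edgeR), and the coefficient of variation between rats was 28.1% with FSH and 42.1% without.

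Fstl3 (ENSRNOG00000009311), a follistatin relative that is secreted, had 19.2, 25.4, 26.9, 21.5 and 18.1 CPM in degarelix plus FSH rats 1 to 5, and 19.2 to 36.5 CPM with a median of 25.01 in degarelix only rats. The highest values, of degarelix only replicates 4 and 6, were above every degarelix plus FSH rat, and the rest of the groups overlapped. Fstl3 differed by a log2 change of -0.26 ± 0.16 (adjusted p = 0.364, edgeR; 95% interval of the fold 0.653 to 1.07). The ratio of Fstl3 to Fst reads lay between 2.12 and 3.26 in degarelix plus FSH rats and between 2.09 and 6.80 in degarelix only rats. It was below the degarelix only mean of 4.78 in 5 of 5 degarelix plus FSH rats. Degarelix only replicates 2, 4 and 5, at 2.09, 3.05 and 3.89, were below that mean too. That ratio was chosen after earlier results were known and was not tested.

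**Figure D2:**
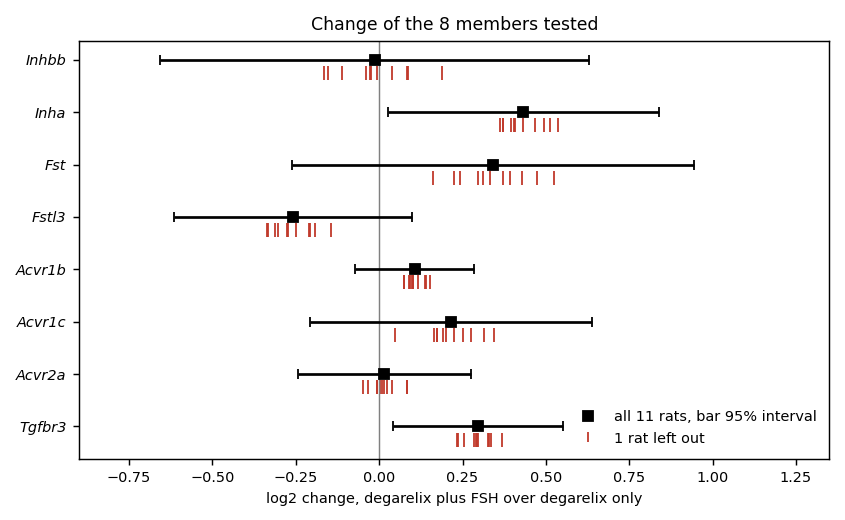
Log2 change of the 8 genes tested, degarelix plus FSH over degarelix only; squares are the estimates from 11 rats, bars their 95% intervals, and red ticks the estimates with 1 rat left out. The intervals of Inha and Tgfbr3 lie above 0 before adjustment, and those of the other genes include 0.

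Of the type I receptors, which carry the kinase that phosphorylates Smad2 and Smad3, Acvr1b had the lowest coefficient of variation between rats of the 10 genes. Acvr1b (ENSRNOG00000006934) had 19.0, 19.7, 17.6, 15.7 and 18.3 CPM in degarelix plus FSH rats 1 to 5, and 14.8 to 18.6 CPM with a median of 16.3 in degarelix only rats. The rats with the highest values were degarelix plus FSH replicates 2 and 1, and the remaining values overlapped. Its coefficient of variation was 8.54% with FSH and 9.15% without, and its log2 change was 0.11 ± 0.082 (adjusted p = 0.461, edgeR), with a 95% interval of the fold from 0.952 to 1.22.

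Acvr1c (ENSRNOG00000004828), the type I receptor known from mouse adipocytes, had 4.56, 7.03, 5.64, 9.07 and 5.28 CPM in degarelix plus FSH rats 1 to 5, and 4.48 to 7.73 CPM with a median of 5.08 in degarelix only rats. A single rat stood highest in each group, replicate 4 in both, followed by degarelix plus FSH replicate 2, and the other rats overlapped. The log2 change was 0.22 ± 0.19 (adjusted p = 0.538, edgeR). It was 0.049 without degarelix plus FSH replicate 4 and 0.35 without degarelix only replicate 4, and passed in neither case (adjusted p = 0.898 and 0.256).

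Of the type II receptors, which bind the ligand first, Acvr2a was measured closely and Acvr2b was at the limit of counting. Acvr2a (ENSRNOG00000005334) had 10.9, 9.81, 8.61, 7.42 and 9.60 CPM in degarelix plus FSH rats 1 to 5, and 7.62 to 11.2 CPM with a median of 9.09 in degarelix only rats. The ranges nearly coincided, and the log2 change was 0.014 ± 0.12 (adjusted p = 0.956, edgeR; 95% interval of the fold 0.844 to 1.21). Acvr2b (ENSRNOG00000014477) had 6, 7, 12, 8 and 10 counts in degarelix plus FSH rats 1 to 5 and between 6 and 17 counts in degarelix only rats. That is 0.528 ± 0.209 CPM with FSH (SD, n = 5) and 0.528 ± 0.163 CPM without (SD, n = 6), too few counts to enter the test.

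The co-receptor Tgfbr3 (ENSRNOG00000002093) had the smallest p of the set. It had 198, 219, 252, 192 and 223 CPM in degarelix plus FSH rats 1 to 5, and 139 to 221 CPM with a median of 176 in degarelix only rats. All 5 degarelix plus FSH rats were above the degarelix only mean of 177 ± 30.1 CPM, but degarelix only replicates 4 and 5 reached into their range. Tgfbr3 averaged 217 ± 23.6 CPM with FSH. In the fit the log2 change was 0.30 ± 0.12 (adjusted p = 0.168, unadjusted p = 0.0267, edgeR; 95% interval of the fold 1.03 to 1.46). Its unadjusted p ranked 2044 among the 12846 genes. With degarelix only replicate 4 left out, the log2 change was 0.37 and the adjusted p 0.0703 (edgeR), the lowest over the alternatives tried. Leaving out that rat also raised the calls over all genes from 292 to 532. Without degarelix plus FSH replicate 3 the log2 change of Tgfbr3 was 0.24 and the adjusted p 0.295 (edgeR), the highest over the alternatives. The endothelial and the pericyte and smooth muscle marker sums given above averaged 1657 and 732 CPM with FSH and 1296 and 614 CPM without, and their part in this difference was not tested.

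**Figure D3:**
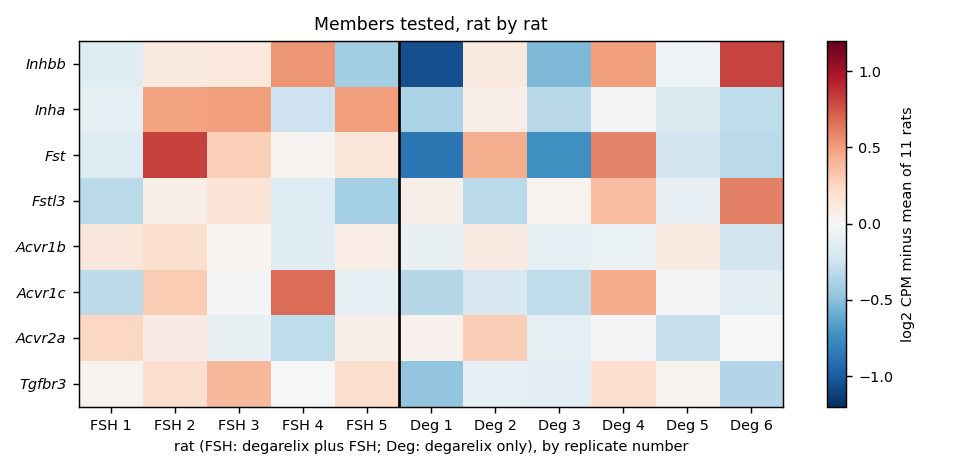
Log2 CPM of the 8 genes tested minus the gene's mean over the 11 rats, 1 column per rat, degarelix plus FSH (FSH 1 to 5) left of degarelix only (Deg 1 to 6). Rows are genes and colour is the deviation in log2 units; degarelix only replicate 1 is low for Inhbb, Fst and Tgfbr3, and degarelix only replicate 6 is high for Inhbb and Fstl3.

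Across rats, some members moved together more than others. Over the 28 pairs of the 8 genes tested, Spearman's rho passed a permutation test adjusted over the pairs for 2, both with Inha, and Pearson's r passed for 0 pairs, over all 11 rats. How often pairs drawn from all genes would pass was not computed, so the 2 pairs are not set apart from other genes. The permutations ran across both groups, so they do not separate a group difference from covariation within groups. For these pairs r, but not rho, was also computed with the group means removed, without a test. Inha and Tgfbr3 had r = 0.79 (permutation p = 0.00373, adjusted 0.104) and rho = 0.882 (permutation p = 0.00069, adjusted 0.0193). Without the 2 rats farthest from the Inha median r was 0.668, and with the group means removed it was 0.655. Inha and Fst had r = 0.738 (permutation p = 0.011, adjusted 0.122) and rho = 0.827 (permutation p = 0.00297, adjusted 0.0416), with r = 0.876 without the 2 farthest rats and 0.678 with group means removed. Inhbb and Acvr1c had r = 0.615 (permutation p = 0.0447, adjusted 0.208) and rho = 0.709 (permutation p = 0.0177, adjusted 0.126), which failed the adjustment. Inhbb and Inha, whose products pair to form inhibin B, had r = 0.073. Values of 1 rat share a library and its scaling, which bears on all these pairs.

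**Figure D4:**
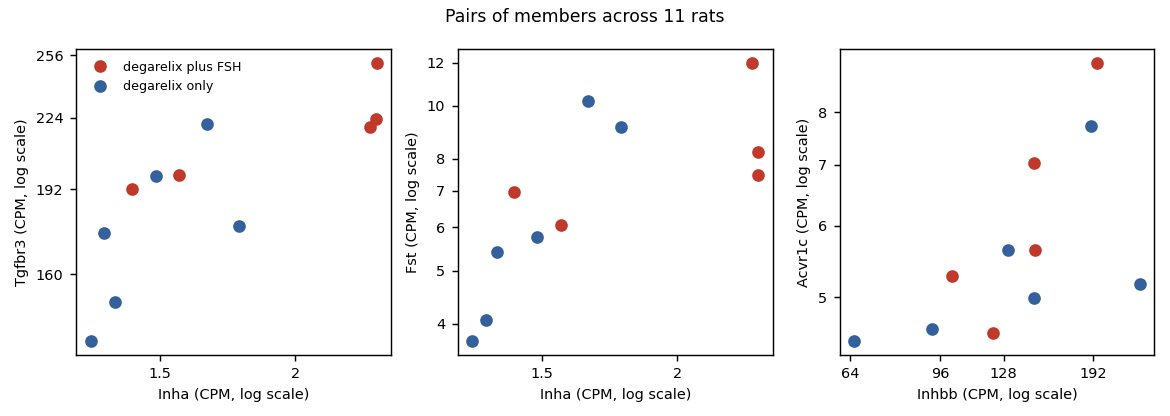
Pairs of genes across the 11 rats, CPM on log axes, degarelix plus FSH in red and degarelix only in blue. Inha is plotted against Tgfbr3 (rho 0.882) and Fst (rho 0.827), and Inhbb against Acvr1c (rho 0.709).

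The genes whose log2 CPM followed a ligand, a receptor and an antagonist most closely were picked from 12791 genes after removal of the group means, as a description without a test. For Inhbb they were Slc35f5 (r = 0.981, 11 rats), Champ1 (r = 0.955) and Grhl3 (r = 0.951), and 22 genes exceeded 0.9. Slc35f5 placed the rats in the same order as Inhbb (rho = 1.0 with group means removed). Grhl3 was sparse, with means of 1.94 CPM with FSH and 0.987 CPM without. For Acvr1c they were Atf6 (r = 0.923), Med14 (r = 0.916) and Akap12 (r = 0.916), and 9 genes exceeded 0.9. With the group means kept in, these were 0.383 for Atf6, 0.642 for Med14 and 0.923 for Akap12, and Atf6 had a log2 change of -0.28 where Acvr1c had 0.22. For Fst they were Lpar4 (r = 0.928), Ttbk2 (r = 0.907) and Taok3 (r = 0.906). With the group means kept in, these were 0.928 for Lpar4, 0.776 for Ttbk2 and 0.542 for Taok3. The same values for Inhbb were 0.980 for Slc35f5, 0.955 for Champ1 and 0.865 for Grhl3.

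In the rest of the pathway, 77 of 79 listed genes were matched, 60 were tested, and 1 rose and 1 fell past the threshold in edgeR's fit. DESeq2 called 9, with Eng, Acvrl1, Id1, Id3 and Ltbp1 higher and Nedd4l, Bmpr1a, Mstn and Pmepa1 lower. Among all genes tested, 1.21% rose and 1.07% fell in edgeR's fit. DESeq2 called more genes over the whole table too, 1103 of the 17034 with a count, against 292 in edgeR. Of the 1103, 540 were higher and 563 lower. The edgeR shares are therefore no background for the 9 DESeq2 calls. The number of genes left after DESeq2's own filter was not recorded, so its exact share is not given. Whether the 9 exceed that share was not tested. Eng (ENSRNOG00000050190), endoglin, a co-receptor of the same kind as betaglycan that is abundant on endothelium, rose to 591 ± 27.8 CPM with FSH, against 443 ± 49.3 CPM without (SD, n = 5 and n = 6; log2 change 0.42 ± 0.083, adjusted p = 0.0328, edgeR). Every degarelix plus FSH rat, at 555 to 621 CPM, was above every degarelix only rat, at 381 to 516 CPM. Its call stood without degarelix only replicates 2, 3 or 4 or degarelix plus FSH replicate 4, and ended without any of the other 7 rats (adjusted p up to 0.0818). Of the 6 endothelial markers, none at 0, and the 6 pericyte and smooth muscle markers, all lay higher with FSH, 1 of them, the endothelial Tek, past the threshold, with the sums given above. Their part in the Eng difference was not tested.

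Nedd4l (ENSRNOG00000017610), a ubiquitin ligase that marks activated Smad2 and Smad3 for degradation, fell to 22.9 ± 2.13 CPM with FSH, against 29.3 ± 2.71 CPM without (log2 change -0.35 ± 0.082, adjusted p = 0.0462, edgeR). The groups did not overlap, at 19.7 to 25.7 CPM with FSH and 27.0 to 33.8 CPM without. Its call stood only when degarelix plus FSH replicate 4 was the rat left out, with an adjusted p up to 0.109 otherwise, and ended without the low-count filter (adjusted p = 0.0553).

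**Figure D5:**
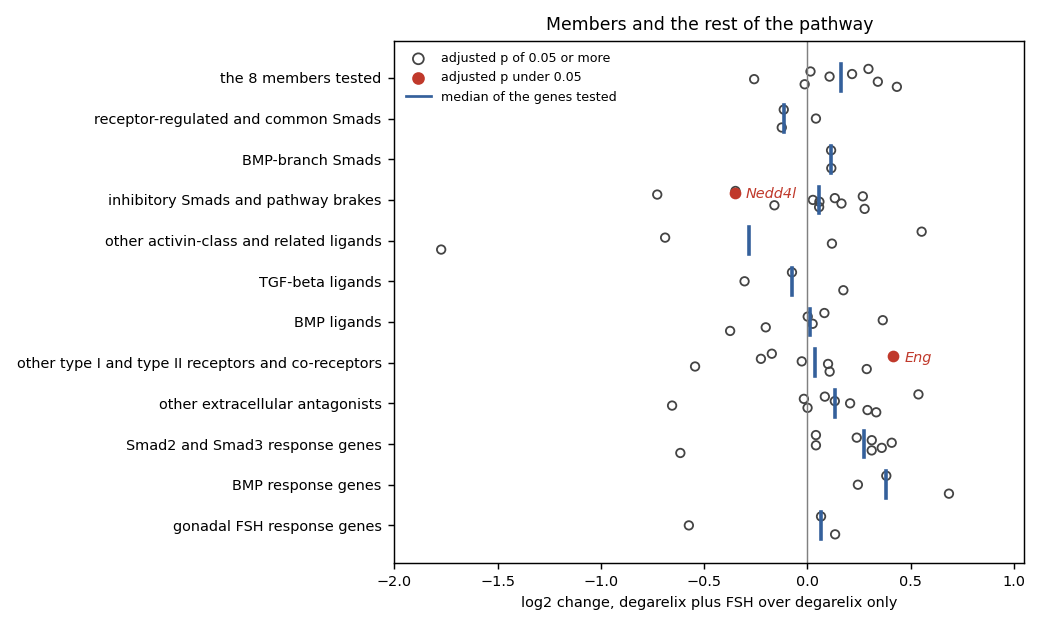
Log2 change, degarelix plus FSH over degarelix only, of the 8 members tested and of the other pathway genes by list; open circles did not pass an adjusted p of 0.05 in edgeR, filled red circles did, and blue lines are list medians. Only Eng and Nedd4l are filled.

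No Smad passed the threshold in edgeR or DESeq2. Smad2 and Smad4, the effector and its common partner, had log2 changes of -0.12 ± 0.063 (adjusted p = 0.264) and -0.11 ± 0.065 (adjusted p = 0.314) in the edgeR fit, and Smad1 and Smad5 of the BMP branch had 0.12 and 0.11. Of 11 inhibitory Smads and brakes, 7 had a log2 change above 0 and 4 below, with a median of 0.056. Nedd4l passed in edgeR, and Nedd4l and Pmepa1 in DESeq2, both lower with FSH. Pmepa1, a Smad-induced inhibitor of the pathway, averaged 351 ± 132 CPM with FSH and 582 ± 152 CPM without (log2 change -0.73 ± 0.24, adjusted p = 0.113, edgeR; 0.0271, DESeq2). None of the 8 genes listed as Smad2 and Smad3 response genes passed in edgeR or DESeq2; their median was 0.27, with the matrix protein gene Postn at 0.41 ± 0.20. Of the 3 BMP response genes tested, with a median of 0.38, none passed in edgeR, while Id1 and Id3 passed in DESeq2 (adjusted p = 0.0165 and 0.0262). Id1, an inhibitor of differentiation factors, averaged 150 ± 9.55 CPM with FSH and 93.3 ± 31.7 CPM without (log2 change 0.68 ± 0.20, adjusted p = 0.0868, edgeR), and Id3 had 0.38 ± 0.11 (adjusted p = 0.0872).

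Of the ligands outside the set, none passed in edgeR, and Mstn passed in DESeq2. Mstn, myostatin, which also binds Acvr2b and is held by follistatin, had 0.901, 0.679, 0, 2.002 and 0.242 CPM in degarelix plus FSH rats 1 to 5, and 1.40 to 4.65 CPM in degarelix only rats. All but replicate 4 of the degarelix plus FSH rats were below every degarelix only rat. Mstn was sparse, with 385 counts over the 11 libraries, and the 0 of degarelix plus FSH replicate 3 allows up to 0.223 CPM. Its log2 change of -1.77 ± 0.59 did not pass in edgeR (adjusted p = 0.117) but did in DESeq2 (-1.79 ± 0.60, adjusted p = 0.0385). Gdf15 had a log2 change of -0.69 ± 0.34, Tgfb1 of 0.17 ± 0.087, Tgfb2 of -0.30 ± 0.17, Bmp2 of -0.37 ± 0.19 and Bmp5 of 0.36 ± 0.29, and none of these passed with either tool. Bmpr1a, a type I receptor for BMPs, averaged 26.6 ± 3.90 CPM with FSH and 38.7 ± 8.85 CPM without (log2 change -0.54 ± 0.15, adjusted p = 0.0801, edgeR; 0.0147, DESeq2). Among the other antagonists, Ltbp1, which holds latent TGF-beta in the matrix, had 0.54 ± 0.15 (adjusted p = 0.0715, edgeR; 0.0132, DESeq2).

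Of the genes that FSH is known to raise in the ovary, Fshr, Lhcgr and Cyp19a1 had 0 counts in all 11 libraries. Cyp11a1, the side-chain cleavage enzyme of steroid synthesis, was counted at 39.7 ± 3.63 CPM with FSH and 36.2 ± 2.87 CPM without (log2 change 0.13 ± 0.074, adjusted p = 0.307, edgeR). Star, the steroidogenic cholesterol carrier, was at 16.7 ± 5.07 CPM with FSH and 24.8 ± 6.51 CPM without (log2 change -0.57 ± 0.23, adjusted p = 0.175, edgeR). None of the 3 genes of that list tested passed the threshold in edgeR or DESeq2.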

How the data were processed

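The file holds 1 column of counts per rat, assigned by the column names given in the labels. The deposited values are raw whole-number counts, 1 row per Ensembl gene, made from paired-end, strand-marking mRNA libraries per the labels' protocols. STAR, edgeR, DESeq2 and rn6 are named in the submitters' processing notes, with no roles. The counter, annotation release and strand setting are each not given in the sources used here, so genes that overlap or lie antisense may share counts. Pcmt1 was left out because a cell holds a letter.

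Counts were fitted with edgeR 4.0.16 in R 4.3.3: filterByExpr (12846 of 25274 genes kept), TMM factors, a robust quasi-likelihood F test on group, two-sided, Benjamini-Hochberg adjustment over all genes tested, threshold 0.05. CPM are counts per 1000000 of the tested genes' total after TMM scaling. The 95% intervals use the standard error from the F statistic. A count of 0 allows up to 3 counts, and such limits cover counting error only. The labels call the libraries biological replicates of individual rats. Correlations used log2 CPM (prior count 2) and permutation tests of 100000 resamples. Of the symbols in the lists, 1 pathway gene, Ccn2, matched through its synonym Ctgf, while Tgfbr1 (on several rows) and Hsd3b1 were left out. The edgeR step was tested on simulated data. Alternatives were DESeq2 1.42.0, limma-voom (limma 3.58.1), other scalings and filters, no robust estimation, the replicate number as a block, and each rat left out.

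The members and lists were chosen with earlier results of these data known. Genes named were the 10 members, Fshr, and in each pathway list those past the threshold and the 2 largest changes among genes tested, of which some are not reported here. The motifs TGCGTCA and TGATGTCA, and Inhbc and Inhbe, were chosen after values or sequences were seen. No coordinates of the count file's genes are printed; promoter windows are on GRCr8, not rn6.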

Additional observations from a re-analysis of the deposited data

Results flagged for a closer look

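In degarelix only replicate 4, Acvr1c stood apart from its group at 7.73 CPM, where the other degarelix only rats lay between 4.48 and 5.63 CPM. In degarelix plus FSH replicate 3, Acvr2b stood apart at 0.891 CPM, where the other degarelix plus FSH rats lay between 0.360 and 0.485 CPM, and it rests on 12 counts. The gap to the nearest rat, as a share of the group's range, was 0.644 for Acvr1c (critical value of Dixon's test 0.625 for 6 rats) and 0.766 for Acvr2b (0.71 for 5 rats). Chance alone flags about 1 in 20 groups, and both groups of every member and of the read ratios were screened.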

How the results depend on the processing

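The count of members past the threshold was 0 under each of the 19 alternatives. Inha, Fst, Fstl3, Acvr1b, Acvr1c and Tgfbr3 kept their direction in all of them. With 1 rat left out their log2 changes ranged from 0.36 to 0.54 for Inha, 0.16 to 0.52 for Fst, -0.34 to -0.15 for Fstl3, 0.073 to 0.15 for Acvr1b, 0.049 to 0.35 for Acvr1c and 0.23 to 0.37 for Tgfbr3. Those near 0 changed sign, and the cause was not tested. Inhbb ranged from -0.16 to 0.19, above 0 without degarelix only replicates 4 or 6 (0.083 and 0.19) or degarelix plus FSH replicates 1 or 5 (0.038 and 0.088), and was 0.090 with limma-voom. Acvr2a ranged from -0.049 to 0.084, below 0 without degarelix only replicates 3 or 5 (-0.0064 and -0.033) or degarelix plus FSH replicates 1 or 2 (-0.049 and -0.0069). Over all genes the 292 calls became 1103 with DESeq2 and 30 to 551 with 1 rat left out, 30 without degarelix plus FSH replicate 2. Of the other pathway genes, 2 calls became 9 with DESeq2 (5 higher, 4 lower), 1 without the low-count filter and 0 to 4 with 1 rat left out.

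Rats of the same replicate number in the groups are not named as pairs in the sample titles. Their deviations from the group means correlated at -0.11 to 0.13, and no degarelix plus FSH rat correlated best with its own number. Whether rats of the same number shared a batch was not tested. The fit with the replicate number as a block left out degarelix only replicate 6. In it 14 genes over the table, 0 other pathway genes and 0 members passed, and Inhbb had a log2 change of 0.25.

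Depth limits Inhba and Acvr2b. Without the low-count filter Acvr2b had a log2 change of -0.026 (adjusted p = 0.973, edgeR), and Inhba, with 9 counts in all, has none that can be read.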

Other observations

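The ratio of Inhbb reads to the summed reads of its antagonists Fst and Fstl3 lay between 3.93 and 6.85 in degarelix plus FSH rats and between 2.24 and 5.67 in degarelix only rats. The ratio of Inhbb to Inha reads, the beta B and alpha subunits of inhibin B, lay between 42.6 and 138 in degarelix plus FSH rats and between 50.2 and 174 in degarelix only rats. The ratio of Acvr1b to Acvr1c reads lay between 1.73 and 4.16 in degarelix plus FSH rats and between 2.12 and 3.74 in degarelix only rats. These ratios are not corrected for transcript length and were not tested.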
